A study of Mus musculus with 28 samples.

Results

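The genes described here drive and carry out the cell cycle and DNA replication. The list held 57 named genes, chosen by symbol and sorted by phase into 7 groups, and each gene was read from the probe set with the highest mean signal among those assigned to a single gene. Of these, 56 had such a probe set and 55 passed the filter on low signals, among 13512 genes tested in all. Ttk, a spindle checkpoint kinase gene, had log2 signals of 5.31 to 6.13 on the 28 arrays, under the background floor of 6.32, and was not tested. Ccnb1, the gene of cyclin B1, was not analysed here.

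A cell enters the cycle when D and E cyclins with their kinases release E2F factors, which switch on the genes that license origins and copy DNA. Later the MuvB complex, with B-MYB and FOXM1, switches on a second wave of genes for G2, mitosis and cytokinesis, and in resting cells the DREAM complex holds both waves down. Resident macrophages of the peritoneal cavity are long-lived cells that renew themselves in place by slow division, under the transcription factor GATA6 and the growth factor CSF1.

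Messenger RNA was measured on Affymetrix arrays in resident peritoneal macrophages of mice, which the labels describe as 4 independent samples in each of 7 groups. Uninjected mice lacked ATF7, a stress-responsive factor of the ATF/CREB family, on a C57BL/6 background, or were wild type (WT) on that background. The labels do not say which part of Atf7 was removed, or the age of the uninjected mice. Other wild-type mice were injected intravenously at 7 to 8 weeks of age with LPS (Escherichia coli lipopolysaccharide), PGN (peptidoglycan), IMQ (imiquimod) or BG (β-glucan), each set against PBS. Their cells were collected 3 to 4 weeks later, at 10 to 12 weeks of age, and the sample names give 3 weeks. All cells were washed from the cavity without thioglycollate and kept overnight in serum-free medium, and dishes were rinsed to remove lymphocytes, so the values describe adherent cells after a night in culture.

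Within groups, correlations between arrays over all probe sets ran from 0.985 to 0.996. Atf7 was read by 2 probe sets. On probe set 10433032 the level was 7.08 ± 0.10 in knockout cells against 9.97 ± 0.11 in WT cells (SD, n = 4 each), 7.40-fold lower, with an exact permutation p of 0.0286, the smallest that 4 against 4 arrays allow. On probe set 10433034 it was 10.28 ± 0.042 in knockout and 10.73 ± 0.079 in WT cells. Markers of large peritoneal macrophages were present in every group, with a mean log2 signal over 18 genes of 10.53 to 10.64 in knockout arrays and 10.95 to 11.21 in WT arrays. In these bulk samples, fewer cells of a type and less RNA per cell cannot be told apart. Levels below are log2 signals, changes are differences of mean log2 signals with their standard error (SE), and a gene is said to have risen or fallen where limma's adjusted p over all 13512 genes was under 0.05.

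Promoters of 4 members are printed because the late and early genes, which differ most in the comparisons below, also differ in the motifs near their starts. Ccnb2 and Cdk1 encode cyclin B2 and the mitotic kinase it activates, and Mcm6 and Mcm7 encode subunits of the replicative helicase. Among members of their groups with a promoter in the RefSeq table, these had the largest changes in the knockout. Each sequence runs from 250 bases before to 50 after the annotated start on GRCm38.p6, on the minus strand, at chr9:70421505-70421804 for Ccnb2, chr10:69352863-69353162 for Cdk1, chr1:128359656-128359955 for Mcm6 and chr5:138171834-138172133 for the first of 2 listed starts of Mcm7. Capitals mark matches, on either strand, to the cell cycle homology region (CHR, TTTGAA), the CCAAT box (CCAAT), the E2F motif (spelled TTCCCGC or as TTGGCGC or as TTCGCGC or as TTGCCGC) and the core of the cAMP response element bound by ATF/CREB factors (TGACGT).
Ccnb2: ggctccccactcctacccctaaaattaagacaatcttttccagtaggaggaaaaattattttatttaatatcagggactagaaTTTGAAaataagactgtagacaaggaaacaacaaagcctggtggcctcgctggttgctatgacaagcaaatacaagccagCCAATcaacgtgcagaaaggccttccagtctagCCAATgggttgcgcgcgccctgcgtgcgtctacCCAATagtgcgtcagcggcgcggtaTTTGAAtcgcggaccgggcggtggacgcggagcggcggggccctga
Cdk1: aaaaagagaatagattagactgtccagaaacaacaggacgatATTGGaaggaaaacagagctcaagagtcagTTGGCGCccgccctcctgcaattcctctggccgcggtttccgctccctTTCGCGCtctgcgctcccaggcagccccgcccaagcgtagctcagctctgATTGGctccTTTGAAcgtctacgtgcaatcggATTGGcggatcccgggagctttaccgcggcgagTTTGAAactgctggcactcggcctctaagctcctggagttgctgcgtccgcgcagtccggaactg
Mcm6: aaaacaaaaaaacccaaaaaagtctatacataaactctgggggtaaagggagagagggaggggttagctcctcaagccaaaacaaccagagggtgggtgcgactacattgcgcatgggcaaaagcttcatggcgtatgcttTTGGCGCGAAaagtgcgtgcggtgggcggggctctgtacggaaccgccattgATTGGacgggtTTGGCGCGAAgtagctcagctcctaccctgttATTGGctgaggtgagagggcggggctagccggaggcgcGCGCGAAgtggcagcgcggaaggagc
Mcm7: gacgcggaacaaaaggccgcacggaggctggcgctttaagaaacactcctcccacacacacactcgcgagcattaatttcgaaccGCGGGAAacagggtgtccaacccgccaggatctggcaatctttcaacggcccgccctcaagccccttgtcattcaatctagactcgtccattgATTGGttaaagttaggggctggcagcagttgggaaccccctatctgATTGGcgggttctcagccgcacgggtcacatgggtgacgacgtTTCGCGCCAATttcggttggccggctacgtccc
The Ccnb2 window held CCAAT matches whose first bases lay at -87, -54 and -21 from the start and CHR matches at -167 and 5. In Cdk1 the CHR matches lay at -71 and -15, with CCAAT matches at -208, -80 and -48. The Mcm6 window held 5 E2F matches, and those at -109 and -106, and at -46 and -43, overlapped on opposite strands. In Mcm7 the E2F matches at 18 and 21 overlapped each other and a CCAAT match at 24. None of the 4 windows held TGACGT.

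Promoters were in the table for 48 of the 57 members, with 52 promoters. They were missing for Ccnd1, Ccne2, Mcm4, Ccna2, Foxm1, Smc4, Aurkb, Tpx2 and Kif20a. The CHR motif was found in 25 of 32 promoters (78.1%) of members of G2, chromosome structure, spindle and cytokinesis, and in 3 of 20 (15%) of members of G1, licensing and S phase. It was in 17.9% of all 32851 promoters and 12.1% of the 13503 promoters of genes tested. For the E2F motif the shares were 18.8% (6 of 32) in the later members, 60% (12 of 20) in the earlier ones, 9.57% in all promoters and 15.4% in those of genes tested. CCAAT was found in 81.2% of the later and 70.0% of the earlier promoters, against 37.4% of all. The ATF/CREB core was in 1 of 32 later promoters (3.12%), that of Cenpe, and in 4 of 20 earlier ones (20%), those of Cdk2, E2f1, Mcm2 and Mcm5, against 7.51% of all promoters and 10.7% of those of genes tested. Ect2 and Prc1 had listed starts so close that their windows overlapped, and the same sites were counted for each start. Of 33 CHR matches in later members, which came from 23 genes, 24 began within 50 bases of the start. These are matches of letters, and binding was not measured.

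**Figure D1:**
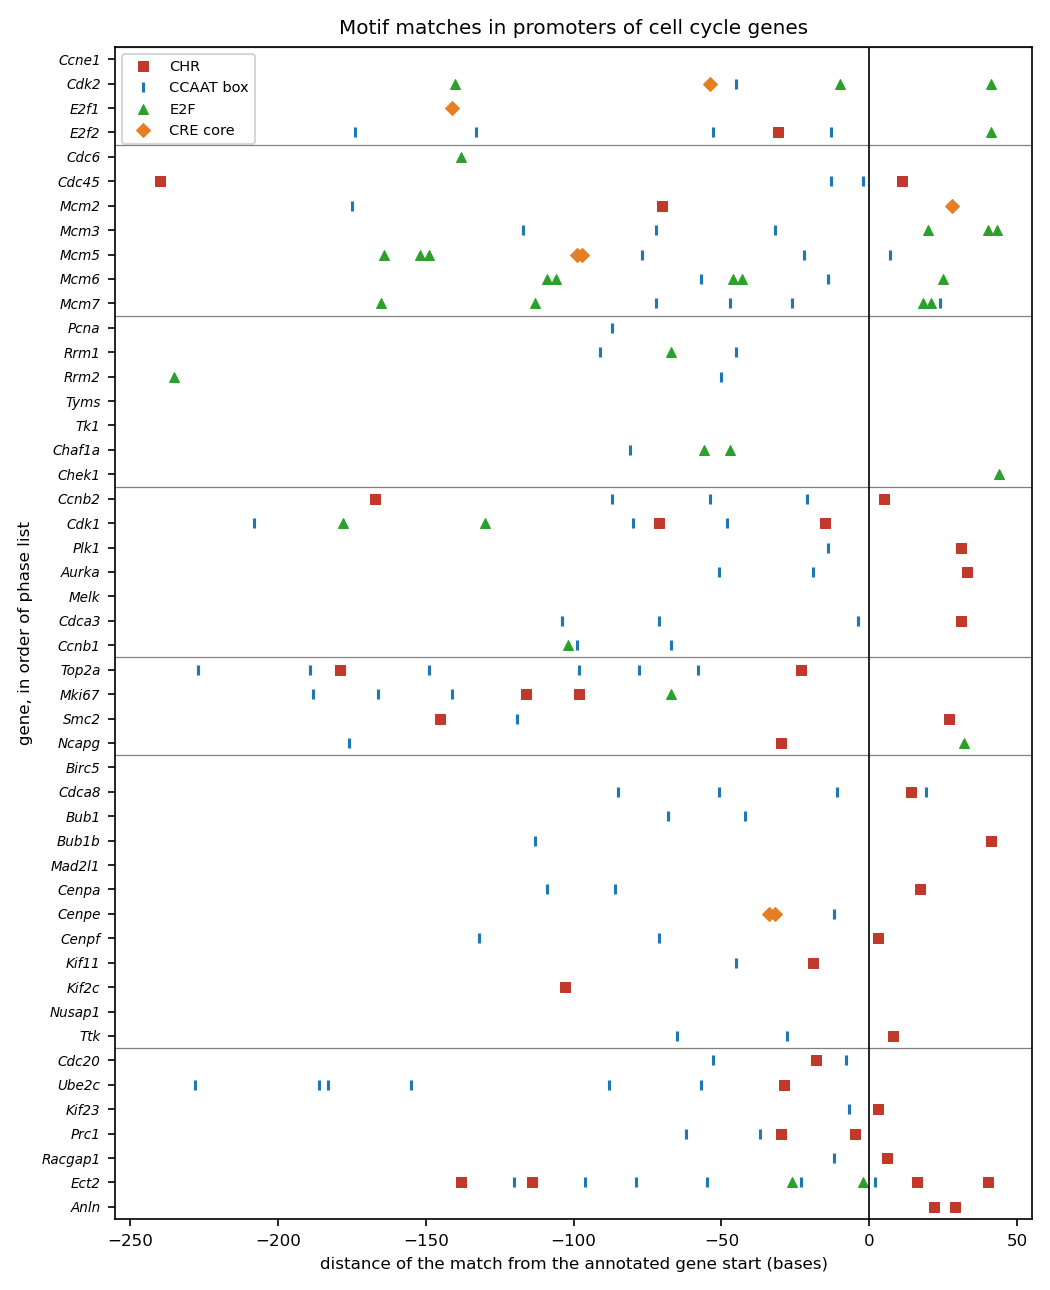
Motif matches in the promoters of 48 cell cycle genes, by distance of the first base of each match from the annotated gene start (x axis, bases) and gene in order of phase (y axis, grey lines between phases). Genes with several listed starts carry the matches of all of them. Red squares (CHR) cluster around the start in the lower 4 groups, and green triangles (E2F) lie mostly in the upper 3 groups.

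Loss of ATF7 went with lower levels of late cell cycle genes. Of 55 members, 40 fell and 1 rose in knockout against WT cells, where 10.7% of all genes fell, 17.7% rose and 28.3% changed in either direction. The median change of the members was -0.39, against 0.01 for all genes, and the groups did not overlap for 31 of 55 members, as they did not for 21.9% of all genes. The count followed the phases. In the 34 members of G2, chromosome structure, spindle and cytokinesis 32 fell (median change -0.67), and in the 21 members of G1, licensing and S phase 8 fell and 1 rose (median -0.22).

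**Figure D2:**
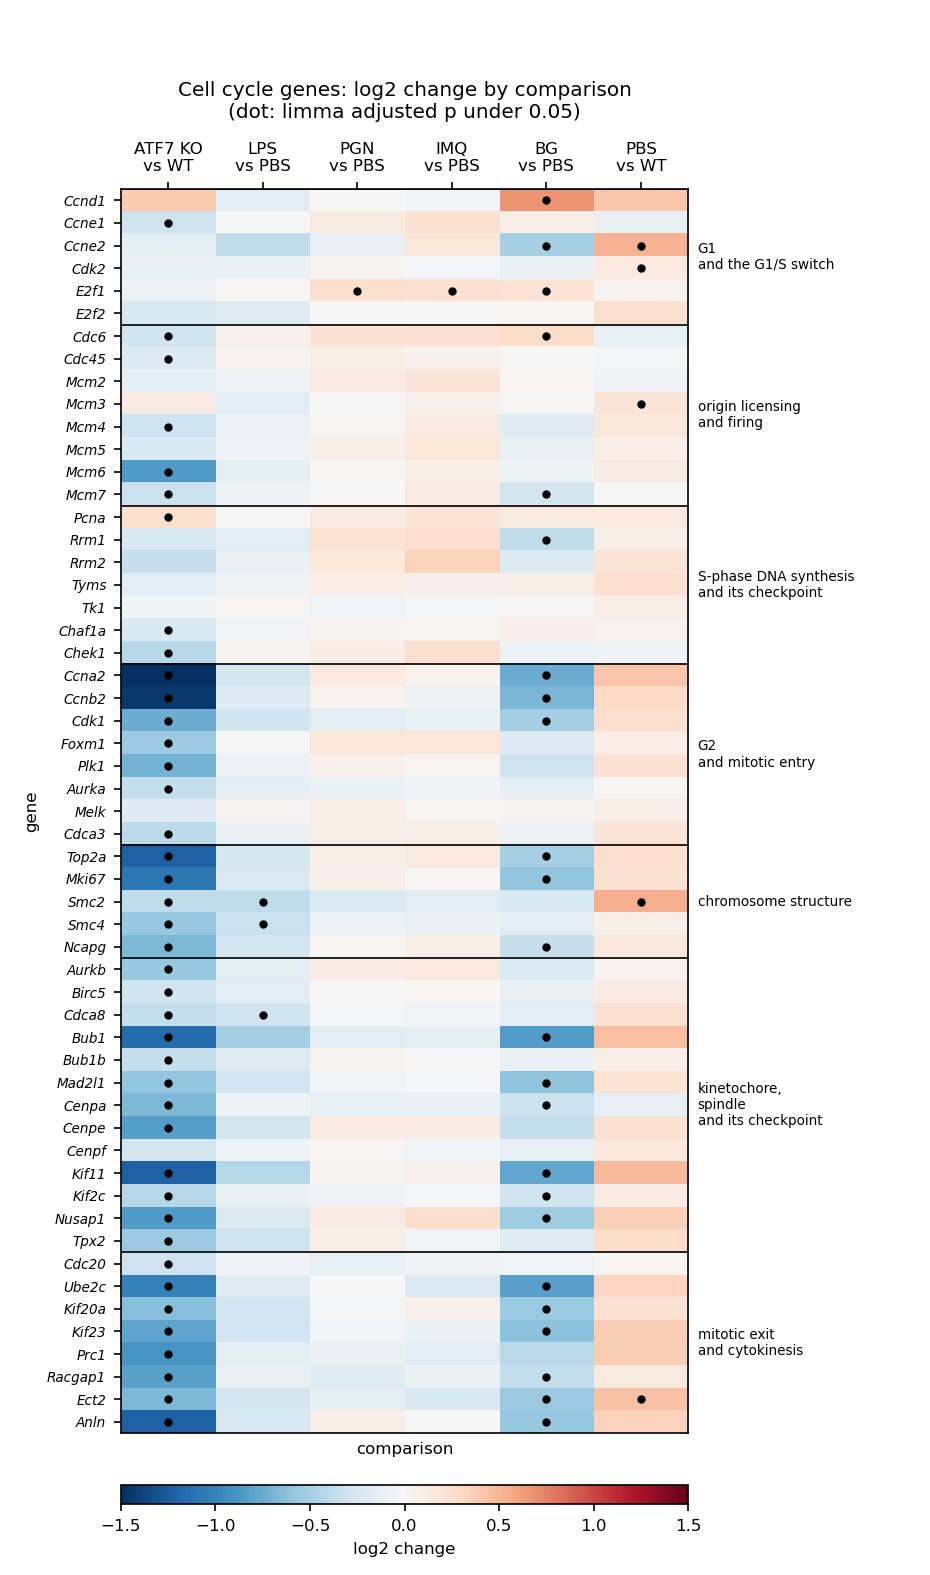
Log2 change (colour, blue lower and red higher) of 55 members (rows, by phase) in 6 comparisons (columns), with a dot where limma's adjusted p was under 0.05. The knockout column is blue with dots from Ccna2 downward except for Melk and Cenpf, the BG column is paler with 24 dots, and the LPS, PGN and IMQ columns hold 3, 1 and 1.

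Among genes of G2 and mitotic entry, 7 of 8 fell. Ccna2, encoding cyclin A2, which activates kinases in S phase and G2, had levels of 6.18, 6.04, 6.22 and 6.89 in knockout cells and 8.36, 7.74, 7.39 and 7.86 in WT cells. Every knockout array lay below every WT array, and the change was -1.5 (SE 0.20, limma adjusted p = 2.59e-06), 2.83-fold lower. Ccnb2 had levels of 7.04, 6.95, 7.22 and 7.66 in knockout cells and 8.97, 8.56, 8.35 and 8.77 in WT cells. The groups were again apart, by -1.45 (SE 0.17, adjusted p = 5.6e-07), 2.73-fold lower. Cdk1 had levels of 7.15, 7.06, 7.18 and 7.26 in knockout cells and 8.27, 7.76, 7.63 and 7.95 in WT cells, with no overlap, and was 1.67-fold lower (change -0.74, SE 0.12, limma adjusted p = 4.05e-05). Foxm1, the transcription factor gene of the late wave, Plk1 and Aurka, which encode mitotic kinases, and Cdca3 also fell, by 0.36 to 0.71 on the log2 scale. Melk, another kinase gene, did not pass (limma adjusted p = 0.0569) and was at or under the floor on every knockout array.

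All 5 members of chromosome structure fell and were apart in every array. Top2a encodes the topoisomerase that untangles sister chromatids. Its levels were 6.07, 5.66, 6.26 and 6.48 in knockout cells and 8.02, 6.98, 6.98 and 7.40 in WT cells, a change of -1.23 (SE 0.19, limma adjusted p = 2.16e-05). The knockout mean of 6.12 lay under the floor, so no fold is given. A second Top2a probe set gave -0.012, with means of 3.20 in knockout and 3.21 in WT cells, far under the floor. Mki67, which coats mitotic chromosomes and is the usual marker of cycling cells, had levels of 7.57, 7.25, 8.05 and 8.04 in knockout cells and 9.21, 8.65, 8.53 and 8.87 in WT cells. It was 2.13-fold lower (change -1.09, SE 0.15, limma adjusted p = 5.21e-06). The condensin gene Ncapg was at 5.05, 5.23, 5.44 and 5.50 in knockout cells and 5.91 to 6.09 in WT cells. Its groups differed (change -0.68, SE 0.14, limma adjusted p = 0.000418), although both were under the floor, where a level is only a bound. The core condensin genes Smc2 and Smc4 were 1.30-fold and 1.48-fold lower.

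Of 13 kinetochore, spindle and checkpoint genes, 12 fell. Kif11, whose kinesin pushes the spindle poles apart, had levels of 5.6, 5.86, 6.16 and 6.55 in knockout cells and 7.88, 7.02, 6.70 and 7.43 in WT cells. The groups did not overlap (change -1.22, SE 0.21, limma adjusted p = 7.08e-05). Bub1, a checkpoint kinase gene, was at or under the floor on all knockout arrays (5.25, 5.46, 5.67 and 6.05) and had 7.24, 6.70, 6.28 and 6.83 in WT cells. It was at least 1.36-fold lower (change -1.16, SE 0.19, limma adjusted p = 4.94e-05). Nusap1, a spindle microtubule-bundling protein gene, had 5.95, 5.86, 6.13 and 6.33 in knockout cells and 7.41, 6.74, 6.55 and 6.95 in WT cells (change -0.84, SE 0.16, limma adjusted p = 0.000256), again with no overlap. The chromosomal passenger genes Aurkb, Birc5 and Cdca8 fell 1.48-fold, 1.23-fold and 1.29-fold, and Cenpa, the histone H3 variant of centromeres, 1.60-fold. Cenpf, under the floor on every knockout array, did not pass (limma adjusted p = 0.0555).

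All 8 genes of mitotic exit and cytokinesis fell. Anln, encoding anillin of the contractile ring, was at or under the floor on every knockout array (5.30, 5.07, 5.77 and 5.89) and had 7.01, 6.67, 6.40 and 6.85 in WT cells, at least 1.33-fold lower (change -1.23, SE 0.17, limma adjusted p = 6.19e-06). Ube2c, the ubiquitin-conjugating enzyme of the anaphase-promoting complex, had 6.53, 6.43, 6.51 and 6.68 in knockout cells and 7.87, 7.66, 7.09 and 7.56 in WT cells, 2.01-fold lower (change -1.01, SE 0.15, limma adjusted p = 1.62e-05). Prc1, which bundles the midzone microtubules, had 5.29, 5.24, 5.79 and 5.92 in knockout cells and 6.94, 6.51, 5.90 and 6.45 in WT cells, at least 1.09-fold lower (change -0.89, SE 0.19, limma adjusted p = 0.000602). Anln and Ube2c were apart in every array, and for Prc1 knockout replicate 4 lay above WT replicate 3. Racgap1, a GTPase regulator of the midzone, had the smallest p of all members and was picked for that. It was 1.75-fold lower at 6.94, 6.56, 7.06 and 6.87 in knockout cells against 7.80, 7.65, 7.46 and 7.75 in WT cells (limma adjusted p = 1e-07).

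The early genes were less uniform. Of 8 genes of origin licensing and firing 5 fell. Mcm6 had levels of 6.24, 7.27, 6.92 and 7.00 in knockout cells and 7.99, 7.54, 7.56 and 7.75 in WT cells, 1.81-fold lower with no overlap (change -0.85, SE 0.13, limma adjusted p = 1.87e-05). Mcm7 had 7.80, 7.63, 7.88 and 7.98 in knockout cells and 8.48, 7.88, 8.06 and 8.19 in WT cells, and Mcm4 had 7.21, 7.34, 7.42 and 7.42 against 7.84, 7.31, 7.78 and 7.71. The groups overlapped for both genes, at changes of -0.33 (SE 0.094, limma adjusted p = 0.00819) and -0.32 (SE 0.088, adjusted p = 0.0073). With only knockout and WT arrays in the fit, both calls ended (limma adjusted p = 0.0640 for Mcm7 and 0.0569 for Mcm4). The other helicase genes did not pass, with changes of -0.14 for Mcm2, 0.12 for Mcm3 and -0.23 for Mcm5. The subunits of this hexamer thus had different changes on the array.

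Pcna, the sliding clamp of DNA polymerases, rose. Its levels were 11.43, 11.57, 11.26 and 11.35 in knockout cells and 11.13, 11.02, 11.23 and 11.29 in WT cells, an overlap of the groups by knockout replicate 3 and WT replicate 4 (change 0.24, SE 0.067, limma adjusted p = 0.00851). A second probe set gave 0.23, with means of 11.40 in knockout and 11.17 in WT cells that matched those of the first. The 2 readings are thus not taken as separate. Chaf1a, a histone chaperone gene of replicated DNA, fell by 0.22 (levels 6.65, 6.81, 6.51 and 6.88 in knockout cells and 7.10, 6.94, 6.78 and 6.92 in WT cells, limma adjusted p = 0.0256). The S-phase checkpoint kinase gene Chek1 fell by 0.42 (limma adjusted p = 0.0133). It was under the floor on every knockout array, at 5.61, 5.72, 5.87 and 5.92, and had 6.53, 5.85, 6.12 and 6.30 in WT cells. The nucleotide synthesis genes Rrm1, Rrm2, Tyms and Tk1 did not pass (changes of -0.34 to -0.067). A second Tk1 probe set, of lower signal, gave -0.19.

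In G1 and at the G1/S switch 1 of 6 members fell. Ccne1, encoding cyclin E1, had 7.02, 7.42, 7.13 and 7.39 in knockout cells and 7.82, 7.37, 7.43 and 7.57 in WT cells (change -0.31, SE 0.090, limma adjusted p = 0.0112), with overlap. Ccnd1, the gene of cyclin D1, had 7.66, 7.95, 7.38 and 7.84 in knockout cells against 7.14, 7.34, 7.35 and 7.43 in WT cells and did not pass (change 0.39, 95% interval 0.02 to 0.76, limma adjusted p = 0.107). E2f1, E2f2, Cdk2 and Ccne2 did not pass either.

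**Figure D3:**
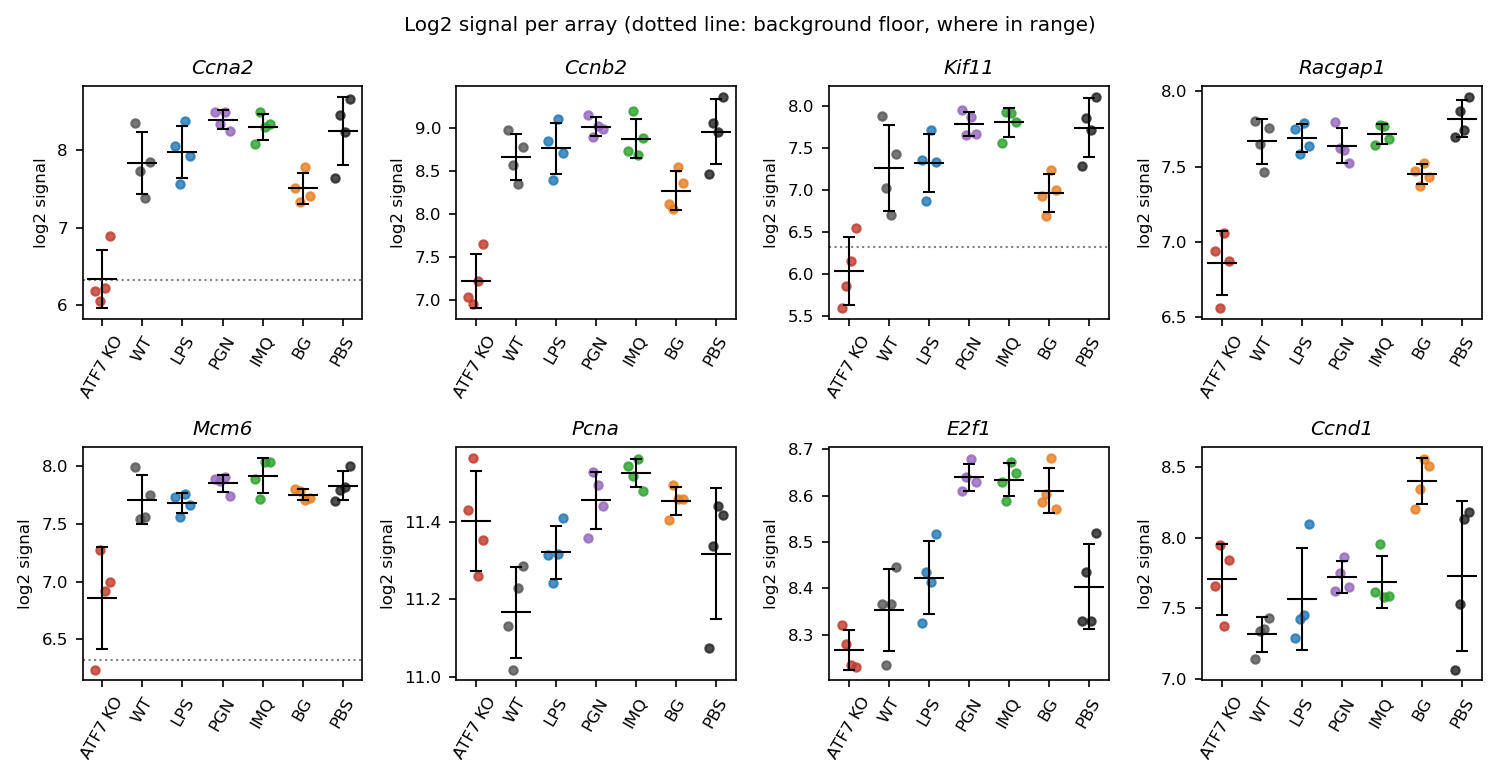
Log2 signal of 8 members on each array (points) with mean and SD of 4 arrays (bars), for knockout beside WT cells and 4 ligands beside PBS, with separate y axes. Ccna2, Ccnb2, Kif11, Racgap1 and Mcm6 have their lowest means in the knockout, E2f1 is higher after PGN, IMQ and BG than after PBS, and Ccnd1 has its highest mean after BG.

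WT replicate 1 had the highest level of the WT arrays for 47 of 55 members. Without it 32 members were called in the knockout, 31 lower, and the calls of Ccne1, Mcm7, Chek1, Chaf1a, Cdc6, Cdc45, Birc5, Cdc20 and Cdca3 ended (limma adjusted p from 0.0594 to 0.2225). The call of Pcna ended without knockout replicate 2 (limma adjusted p = 0.0561).

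B cells, abundant lymphocytes of the peritoneal cavity, had markers that moved with this comparison. Of 17 markers measured, 15 fell (median change -0.85), where 10.7% of all genes fell. Their mean log2 signal per array was 7.71 to 8.21 in knockout cells and 8.31 to 9.0 in WT cells. Ms4a1, Cd79a and Ebf1, which define the lineage, were at 7.33, 8.82 and 6.85 in the knockout, against 8.57, 10.03 and 8.11 in WT. With the mean of these markers as a covariate, 8 members were called in the knockout, 7 lower (Anln, Ccna2, Ccnb2, Cenpa, Racgap1, Smc4 and Ube2c) and Mcm3 higher. Knockout and WT arrays did not overlap in this mean, so the fit cannot fully separate genotype from marker level. Most calls lost there also had a smaller estimate, such as Kif11 (-1.22 to -0.65) and Top2a (-1.23 to -0.66). Those of Cdca3 (-0.39 to -0.43) and Pcna (0.24 to 0.29) had a larger one. In that fit 41 of 55 members had a lower estimate, with a median change of -0.32, and the estimates of Ccne1, Mcm7, Mcm4 and Chek1 turned positive. Of 18 markers of large peritoneal macrophages, 11 fell in the knockout and 1 rose, where 10.7% of all genes fell and 17.7% rose. Gata6, the identity factor of these cells, was at 8.97 in knockout against 10.48 in WT cells (limma adjusted p = 8.58e-10). Of 5 markers of T and NK cells none passed (limma adjusted p from 0.245 to 0.994, and 0 at an unadjusted p under 0.05). The part of these cells in the changes of the cell cycle genes was not tested.

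**Figure D4:**
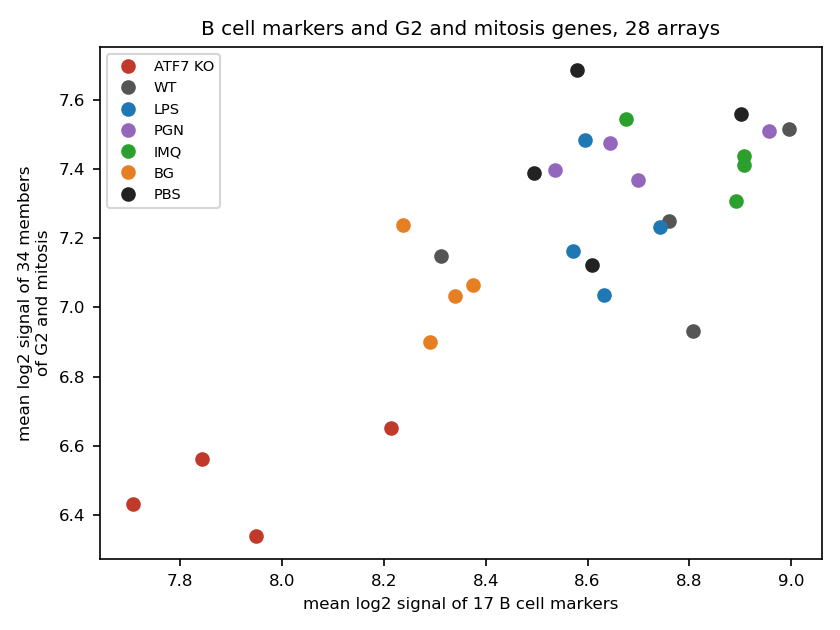
Mean log2 signal of 17 B cell markers (x axis) against that of the 34 tested members of G2, chromosome structure, spindle and cytokinesis (y axis), 1 point per array, coloured by group. The 4 knockout arrays hold the lowest member means, from 6.34 to 6.65, and the BG arrays lie at 6.90 to 7.24.

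Regulators and partners of the cycle, read from lists of other genes, moved in both directions in the knockout. Their counts stand beside shares of 17.7% of all genes that rose, 10.7% that fell and 28.3% that changed. Of 7 CDK inhibitor genes 3 fell and 1 rose. Cdkn2b, which blocks cyclin D kinases, rose by 0.60 (8.33 in knockout, 7.73 in WT, limma adjusted p = 1.71e-06), while Cdkn3 and Cdkn2c fell by 0.53 and 0.48. Of 16 genes of pocket proteins, the DREAM complex and other E2F factors, 4 rose and 3 fell. The largest change was that of E2f8, an E2F repressor, which fell by 0.82 (6.5 in knockout, 7.31 in WT, limma adjusted p = 7.01e-07). Tfdp2, an E2F dimer partner, fell by 0.43 and E2f6 rose by 0.35, whereas Lin9, Lin37, Lin52 and Lin54 of the MuvB core did not pass.

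Of 33 other replication factors 6 fell and 2 rose, with a median change of -0.02, and the share that changed was below the 28.3% of all genes. Pole, the leading-strand polymerase, fell by 0.68 to a knockout mean of 6.06, under the floor, against 6.75 in WT, Mcm10 fell by 0.30, and Pole2, a subunit of the same polymerase, rose by 0.26. None of the 5 tested Orc genes of the origin recognition complex passed. Of 15 genes of the anaphase-promoting complex and its partners 1 fell (Fbxo5, its inhibitor, by 0.33) and 1 rose (Anapc2, by 0.17). In the cohesin list 3 of 10 fell and 1 rose. Sgo2a, the shugoshin that protects centromeric cohesin, fell by 0.80 and the separase gene Espl1 by 0.22, and the securin gene Pttg1 rose by 0.19, while the ring genes Smc1a, Smc3 and Rad21 did not pass.

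Of 17 p53 target and quiescence genes 4 rose and 6 fell, where 17.7% of all genes rose and 10.7% fell. Plk2 rose by 0.88, Phlda3 by 0.57 and the stress gene Gadd45a fell by 0.58. Among 10 genes of macrophage proliferation signals 2 rose and Gata6 fell. Bhlhe41, a transcriptional repressor gene, rose by 0.75 and Myc by 0.36, and Csf1r, the CSF1 receptor, did not pass (change -0.01).

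BG was the ligand with the most changed members. After BG 21 members fell and 3 rose against PBS, where 21.4% of all genes fell, 20.2% rose and 41.6% changed. The share of members that changed was thus near that of all genes. The median change of the members was -0.19, against 0.02 for all genes. In the later groups 18 of 34 fell and none rose (median change -0.35), and in the earlier groups 3 of 21 fell and 3 rose (median 0.01).

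The falls after BG were in G2 entry (3 of 8), chromosome structure (3 of 5), kinetochore and spindle (6 of 13) and exit and cytokinesis (6 of 8). Bub1 had 6.45, 6.07, 6.68 and 6.29 after BG and 6.76, 7.39, 7.14 and 7.57 after PBS, 1.79-fold lower with no overlap (change -0.84, SE 0.19, limma adjusted p = 0.000989). Ube2c had 6.94, 6.80, 7.38 and 7.12 after BG and 7.48, 8.08, 7.75 and 8.17 after PBS, also apart, 1.75-fold lower (change -0.81, SE 0.15, limma adjusted p = 0.000143). Kif11 had 6.93, 6.69, 7.24 and 7.00 after BG and 7.28, 7.86, 7.72 and 8.11 after PBS, 1.71-fold lower without overlap (change -0.77, SE 0.21, limma adjusted p = 0.00425). Ccna2 and Ccnb2 fell by 0.74 and 0.69, but PBS replicate 1 lay within the range of the BG arrays for both. The earlier members that fell were Mcm7, Rrm1 and Ccne2, and for Ccne2 both means were under the floor, at 5.74 after BG and 6.24 after PBS.

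The members that rose after BG were Ccnd1, E2f1 and Cdc6. Ccnd1 had 8.20, 8.34, 8.55 and 8.51 after BG and 7.06, 7.53, 8.13 and 8.18 after PBS, 1.60-fold higher (change 0.67, SE 0.18, limma adjusted p = 0.00377). The groups were apart, and the PBS arrays spread over more than the difference of the means. E2f1, encoding the activator of S-phase genes, had 8.59, 8.6, 8.68 and 8.57 after BG and 8.33, 8.44, 8.33 and 8.52 after PBS, apart by 0.21 (SE 0.049, limma adjusted p = 0.00148). Cdc6, which loads the helicase on origins, had 6.44, 6.59, 6.29 and 6.58 after BG and 6.23, 6.19, 6.19 and 6.19 after PBS. All 4 PBS arrays were under the floor, so it was at least 1.11-fold higher (limma adjusted p = 0.0176). The call of Cdc6 ended without BG replicate 2 (limma adjusted p = 0.0627) or BG replicate 4 (0.0601).

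The mean of the B cell markers was also lower after BG, at 8.24 to 8.38 per array against 8.50 to 8.90 after PBS. Of the 17 markers 6 fell and 1 rose, where 21.4% of all genes fell, 20.2% rose and 41.6% changed. The share of these markers that changed was thus near that of all genes. Of 18 large peritoneal macrophage markers 11 fell and 1 rose, beside the same shares of all genes. With the mean of these 17 markers as a covariate 14 members were called after BG, 10 lower and 4 higher. BG and PBS arrays did not overlap in this mean either, so injection and marker level cannot be fully separated. The calls of Kif11 (change -0.53, limma adjusted p = 0.0734) and Ccna2 (change -0.56, adjusted p = 0.0545) ended in that fit, as did those of Mcm7, Rrm1 and Ccne2. The part of these cells in the result was not tested. A probe set without a gene in the platform table, chosen after its values were seen, was at 7.22 ± 0.042 after BG and 6.79 ± 0.053 after PBS (SD, n = 4 each). Array dates were not used here, so array run and group cannot be told apart.

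Of the 40 members that fell in the knockout, 19 also fell after BG (47.5% of the knockout list and 90.5% of the 21 BG members), and these comparisons share no arrays. Since 40 of all 55 members fell in the knockout, most members of any such list would overlap. The same overlap over all genes was not counted. Rrm1, and Ccne2 under the floor, fell after BG and did not pass in the knockout. The difference of the effects, knockout minus BG, was tested in the same fit. It passed for 29.1% of all genes, 11.2% more negative in the knockout and 18% more positive. Among the 55 members it passed for 12, all more negative in the knockout. That is below the share of all genes in either direction and above their share in this direction. They were Ccne1, E2f1, Cdc6, Mcm6, Chaf1a, Ccna2, Ccnb2, Top2a, Smc4, Cenpa, Racgap1 and Anln. For Mcm6 the difference was -0.78 (SE 0.19, limma adjusted p = 0.00263), from a change of -0.85 in the knockout and -0.08 after BG. Without WT replicate 1, 5 members passed and without WT replicate 3, 20, and with the B cell covariate 6 passed.

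After LPS 3 members fell against PBS and none rose, where 5.52% of all genes fell, 4.36% rose and 9.88% changed. Cdca8, Smc2 and Smc4 were among 46 of 55 members with a lower mean (median change -0.15, all genes -0.01). Smc4 had 8.40, 8.29, 8.63 and 8.42 after LPS and 8.65, 8.85, 8.72 and 8.85 after PBS, apart by -0.33 (SE 0.076, limma adjusted p = 0.0168). Smc2, which pairs with it in condensin, had 7.09, 7.02, 7.33 and 7.10 after LPS and 7.26, 7.67, 7.41 and 7.71 after PBS, with overlap (change -0.38, SE 0.091, limma adjusted p = 0.0198). Cdca8, encoding borealin, had 6.56, 6.88, 6.60 and 6.72 after LPS and 6.74, 6.97, 7.09 and 7.13 after PBS (change -0.29, SE 0.084, limma adjusted p = 0.0327). The call of Cdca8 ended in 6 of 8 fits without 1 array and, with only the LPS and PBS arrays, at a limma adjusted p of 0.0907, where that of Smc2 ended too (adjusted p = 0.0677).

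The LPS count depended on single arrays. PBS replicate 1 was the lowest PBS array for 49 of 55 members, and without it 10 members fell after LPS. Without LPS replicate 2 no member was called (0 of 55), without LPS replicate 3 the count was 6, and without PBS replicate 4 it was 1. In the later groups 32 of 34 members had a lower mean after LPS, and 10 had an unadjusted p under 0.05. The knockout effect minus the LPS effect passed for 18 members, where 29.3% of all genes passed in either direction. Of these members 17 were more negative in the knockout and Mcm3 was higher. The share of members more negative was above that of all genes in this direction. Ccnb2 differed by -1.25 (SE 0.24, limma adjusted p = 0.000552) and Ccna2 by -1.23 (SE 0.28, adjusted p = 0.00247). The number of members fell to 10 without WT replicate 1 or knockout replicate 2, and came to 30 without WT replicate 3. With the B cell covariate it was 2.

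After PGN and after IMQ the only member called was E2f1, which rose. After PGN 2.09% of all genes rose, 1.81% fell and 3.91% changed, and after IMQ 3.09% rose, 2.6% fell and 5.69% changed. E2f1 had 8.61, 8.64, 8.68 and 8.63 after PGN and 8.33, 8.44, 8.33 and 8.52 after PBS, apart by 0.24 (SE 0.049, limma adjusted p = 0.00633). After IMQ it had 8.63, 8.59, 8.67 and 8.65 against the same PBS arrays, apart by 0.23 (limma adjusted p = 0.00503). Among the later members changes ran from -0.22 to 0.18 after PGN and from -0.22 to 0.25 after IMQ. A further probe set without a gene in the platform table, also chosen after its values were seen, was at 10.85 ± 0.042 after PGN, 10.92 ± 0.085 after IMQ and 11.50 ± 0.065 after PBS. Since PGN, IMQ, BG and LPS are all set against the same 4 PBS arrays, the E2f1 results are not separate. After LPS E2f1 was at 8.33, 8.44, 8.41 and 8.52 and did not pass.

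Set against LPS directly, without the PBS arrays, BG changed 7 members, where 34.9% of all genes changed. Ccnd1 was higher by 0.83 (SE 0.18, limma adjusted p = 0.000628) and E2f1 by 0.19, each with all BG arrays above all LPS arrays. Ccnb2, Mad2l1, Cenpa, Ube2c and Racgap1 were lower after BG, by 0.24 to 0.63 on the log2 scale. Mad2l1 encodes a checkpoint protein that holds back anaphase. Without 1 array at a time the count ran from 3, without LPS replicate 1, to 10, without LPS replicate 2 or BG replicate 3.

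PBS mice differed from uninjected WT mice in 5 members, all higher, where 32.7% of all genes changed, 19.7% rose and 12.9% fell. Smc2 had 7.26, 7.67, 7.41 and 7.71 after PBS and 7.06, 6.93, 6.88 and 7.00 in WT cells, apart by 0.55 (SE 0.091, limma adjusted p = 0.000138), and it was the 1 member whose groups did not overlap, as 22.8% of all genes did not. Ccne2, the gene of cyclin E2, had 5.99, 6.25, 6.2 and 6.53 after PBS and 6.04, 5.6, 5.32 and 5.93 in WT cells, with both means under the floor (limma adjusted p = 0.00776). Ect2, which starts the contractile ring through RhoA, had 7.18, 7.79, 7.52 and 7.87 after PBS and 7.5, 7.08, 6.87 and 7.16 in WT cells, with overlap (change 0.44, SE 0.13, limma adjusted p = 0.0111). Cdk2 (limma adjusted p = 0.0346) and Mcm3 (0.0472) were the other two, and in fits without 1 array the call of Mcm3 ended in 7 of 8 and that of Cdk2 in 5 of 8. With only PBS and WT arrays the calls of Cdk2, Mcm3 and Ect2 ended (limma adjusted p = 0.128, 0.110 and 0.0734), and with the replicate number as a block that of Mcm3 did (0.0513). In 49 of 55 members the PBS mean was higher, and 18 members were called without PBS replicate 1 and 14 without WT replicate 1.

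Members also moved together between arrays of the same group. After group means were removed, the first principal component held 64.4% of the variance of the 55 members, against 23.3% for all genes tested, a description over 28 arrays that share their groups' handling. By group of genes it ran from 50.3% in G1 and the G1/S switch to 83.1% in G2 and mitotic entry. Single arrays led their groups. LPS replicate 3 was highest of its group for 44 members, PBS replicate 4 for 44, PGN replicate 3 for 37, BG replicate 3 for 37 and knockout replicate 4 for 30. The mean of the 34 later members spread from 6.34 to 6.65 over knockout arrays and from 6.93 to 7.52 over WT arrays. It spread from 7.04 to 7.48 after LPS, 7.37 to 7.51 after PGN, 7.31 to 7.54 after IMQ, 6.90 to 7.24 after BG and 7.12 to 7.69 after PBS. The knockout arrays thus lay below every array of the other 6 groups, while the BG and PBS ranges overlapped.

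**Figure D5:**
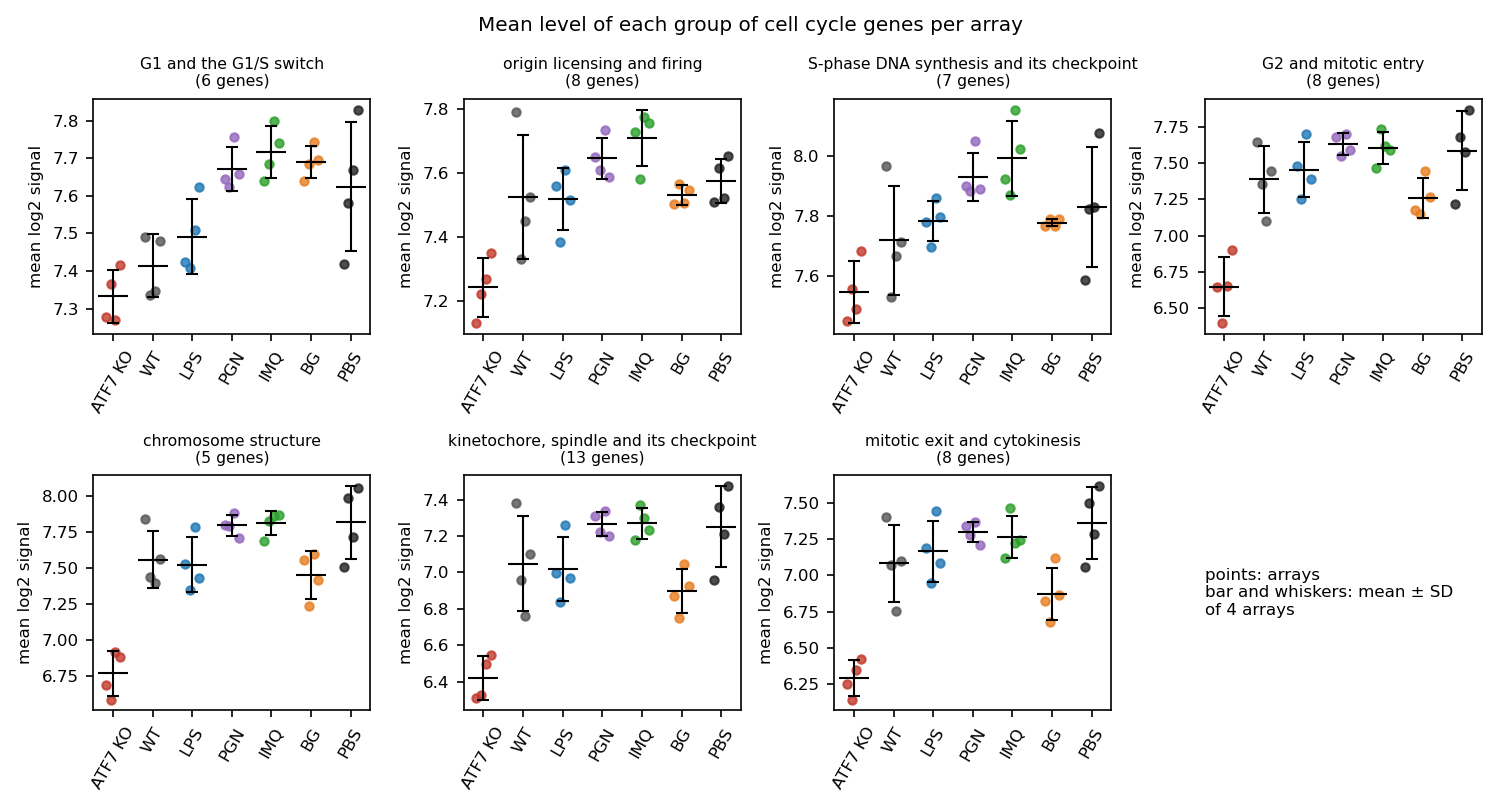
Mean log2 signal of the members of each of 7 phase groups on each array (points), with mean and SD of 4 arrays (bars), on separate y axes. Knockout arrays lie below all WT arrays in the 4 later groups, from G2 entry on, and overlap with WT arrays in the 3 earlier groups.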

How the data were processed

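The values are the authors' deposited array intensities, summarized per probe set with RMA in Affymetrix Expression Console per the submitters' processing notes. Software versions were not given in the sources used here, nor was a genome build. Their log2 was taken here, and no further normalization was applied. Of 35556 probe sets, 21789 had a single gene symbol in the platform table, 1621 had several and 12146 had none. Each gene was read from its probe set with the highest mean. Genes were tested where at least 4 of 28 arrays exceeded a floor of 6.32, the 95th percentile of 1210 olfactory and vomeronasal receptor probe sets, which left 13512.

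A model with 1 mean per group over all 28 arrays was fitted in limma 3.58.1 (R 4.3.3) with an intensity trend, and p-values were adjusted by Benjamini-Hochberg over all tested genes. Adjusted p under 0.05 was a call. Intervals are 95% t intervals. The p-values rest on the spread between samples within groups, pooled over all 7 groups (21 residual degrees of freedom) and moderated across genes. They do not rest on the groups compared alone, and the number of arrays limits precision. A fold is given where both means exceeded the floor, and a bound where every array of the lower group was at or under it. Linear folds are antilogs of log2 changes. The fits were tried on simulated data with independent noise for each gene. That cannot show how counts behave for members that vary together. Figures were drawn with matplotlib 3.10.9 (Python 3.11.15).

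Named genes were, per phase group, up to 3 called members with the largest knockout change, every member called opposite to most, and up to 3 with the largest change in each other comparison. The members and all lists were chosen with earlier results of these data known. The division into earlier and later members, the ranks of arrays and the motifs were chosen after values were seen. Alternatives changed the filter, floor, probe set choice, scaling, intensity trend, arrays in the fit, replicate block, a B cell covariate, and the arrays left out. Deviations of samples with the same replicate number from their group means correlated at -0.35 to 0.45, and in no comparison were all 4 correlations over 0.1, so samples were treated as unpaired.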

Additional observations from a re-analysis of the deposited data

Results flagged for a closer look

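In 245 groups of 4 arrays of named members and phase means, 6 held an array far from the other 3, a pattern that chance gives in about 1 of 20 groups. Chaf1a was at 6.83 in LPS replicate 2 (others 6.98 to 6.99). Top2a was at 7.62 in IMQ replicate 1 (others 7.77 to 7.79). Smc4 was at 8.58 in PGN replicate 4 (others all at 8.72). Ccnd1 was at 7.96 in IMQ replicate 2 (others 7.58 to 7.62). Cdc6 was at 6.23 in PBS replicate 1 (others all at 6.19), under the background floor. The mean of the S-phase genes was 8.05 in PGN replicate 3 (others 7.88 to 7.90).

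The knockout effect differed from the LPS effect, by limma's test of the difference, for 18 of 55 members, where 29.3% of all genes differed. The share of members was thus near that of all genes in either direction. All of these members but Mcm3 were more negative in the knockout, and the share of members more negative was above that of all genes. Among named members the difference was -0.70 for Mcm6, -1.23 for Ccna2, -1.25 for Ccnb2, -0.45 for Cdk1, -0.97 for Top2a and -0.87 for Mki67. It was -0.80 for Kif11, -0.63 for Nusap1, -1.0 for Anln, -0.83 for Ube2c, -0.74 for Prc1 and -0.37 for Cdc6. The knockout effect differed from the BG effect for 12 of 55 members, all more negative in the knockout. Of all genes 29.1% differed, 11.2% more negative and 18% more positive. The difference was -0.41 for Ccne1, -0.78 for Mcm6, -0.30 for Chaf1a, -0.76 for Ccna2, -0.76 for Ccnb2 and -0.73 for Top2a. It was -0.65 for Anln, -0.40 for Smc4, -0.29 for E2f1 and -0.58 for Cdc6.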

How the results depend on the processing

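With mean B cell marker level as a covariate, 8 members were called in the knockout, 14 after BG, 11 in PBS against WT, 2 for the knockout minus LPS effect and 6 for the knockout minus BG effect. Under it the knockout changes of Ccne1 (0.13), Mcm7 (0.013), Mcm4 (0.10) and Chek1 (0.031) turned positive, and the cause was not tested. This covariate did not overlap between knockout and WT arrays or between BG and PBS arrays. The fit thus cannot fully separate genotype or injection from marker level. Most knockout calls lost under it also had a smaller estimate, while those of Cdca3 and Pcna had a larger one. With only the groups compared in the fit, which uses fewer arrays, the counts were 34 for the knockout (the calls of Ccne1, Cdc6, Cdc45, Mcm4, Mcm7, Chaf1a, Birc5 and Cdca3 ended), 1 for LPS, 2 for PBS against WT, 13 for BG against LPS, 10 for the knockout minus LPS effect and 7 for the knockout minus BG effect. With each array centred on its median, 15 members were called in PBS against WT and 7 for the knockout minus BG effect, and the cause was not tested. Leaving out 1 array at a time gave counts of 32 to 44 for the knockout, 0 to 10 for LPS, 1 in every fit for PGN, 1 to 2 for IMQ, 20 to 29 for BG, 2 to 18 for PBS against WT, 3 to 10 for BG against LPS, 10 to 30 for the knockout minus LPS effect and 5 to 20 for the knockout minus BG effect. With the replicate number as a block the counts were 41 for the knockout, 3 for LPS, 1 for PGN, 1 for IMQ, 24 for BG, 5 for PBS against WT, 7 for BG against LPS, 19 for the knockout minus LPS effect and 12 for the knockout minus BG effect. The block kept 4 of the 5 calls of PBS against WT (Mcm3 was lost) and 17 of the 18 of the knockout minus LPS effect. Of the values of named members under the alternatives, 537 kept their direction and their side of the threshold, 43 kept only their direction and 4 turned. Without a filter on low signals 42 of 56 members were called in the knockout. In 11 members every knockout array was at or under the floor, which limits the size of their change.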
